A study of Mus musculus with 10 samples.

Results

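The nuclear-encoded subunits of the mitochondrial respiratory chain were taken as all genes in the count tables whose symbol begins with Nduf (but not Ndufaf), Uqcr, Cox4i, Cox5, Cox6, Cox7, Cox8 or Atp5, together with Sdha, Sdhb, Sdhc and Sdhd. Of 22534 transcripts counted in the series, 85 belonged to 60 such genes, and for each gene the transcript with the most RNAseq reads on average was kept. Of the 60 genes, 38 were measured, meaning that RNAseq over the whole transcript and ribosome footprints (RF) over the coding sequence (CDS) each reached 10 RPKM (reads per kilobase, scaled to the library total) together in 2 or more of the cultures. They were 19 of 27 genes of complex I, 3 of 3 of complex II, 3 of 6 of complex III, 4 of 11 of complex IV and 9 of 13 of complex V.

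The cells were mixed cultures of neurons and glia from the cortex of newborn FVB mice, kept for 7 days in vitro. Untreated cultures 1, 2 and 3 were compared with cultures 4 and 5, which received KCl to a final 55 mM for 3 h, and every culture was given cycloheximide, which stalls ribosomes, for 7 min before lysis. RNAseq and RF libraries were made from portions of the same lysate of each culture, which gave 10 libraries. A further KCl replicate was left out by the authors because of its small library.

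The respiratory chain passes electrons from NADH (complex I) and succinate (complex II) through complex III to oxygen at complex IV, and the proton gradient so built drives ATP synthase, here called complex V. Most subunits are encoded in the nucleus, translated in the cytosol and imported, while a small core is encoded in the mitochondrial genome. Neurons depend on this pathway to restore ion gradients after depolarization, and the transcription factors Nrf1, Gabpa and Yy1 and the coactivator Ppargc1a are known regulators of its nuclear genes. The 13 mitochondrially encoded subunits were not analysed here.

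RNAseq libraries held between 3056286 and 3629959 counted reads, and RF libraries between 1463654 and 7719915. The median measured subunit had between 326.5 and 415.5 RNAseq reads per library and between 137.5 and 744.5 CDS footprints, with the fewest footprints in untreated culture 3 and KCl culture 4. Of 7 activity-induced genes listed as a check of the KCl label, Fos was measured, and its RNAseq rose by 1.58 ± 0.18 (log2 fold change ± SE, adjusted p = 1.93e-09). Cortical markers found in the tables (3 of 4) were detected, and their summed RNAseq level was 140 to 191 CPM (reads scaled to the normalized library total) in untreated and 380 CPM in both KCl cultures. The summed level of 8 astrocyte markers was 10356 to 10992 CPM in untreated and 8718 to 8945 CPM in KCl cultures, and that of 8 neuronal markers was 424 to 647 CPM and 532 to 541 CPM. Sums for the oligodendrocyte lineage were 1451 to 1569 and 1389 to 1393 CPM, for microglia 98.7 to 120 and 80.7 to 106 CPM, for fibroblasts 422 to 505 and 350 to 399 CPM, and for vascular cells 19.2 to 26.0 and 13.3 to 17.6 CPM, and no marker found in the tables was at 0. In bulk cultures, fewer cells of a type and less RNA per cell cannot be told apart, and the part of cell composition in the changes below was not tested.

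For many small subunits, the CDS itself held no counts. Of the 22 genes that were not measured, 15 had no CDS read in any of the 10 libraries, and 12 of these had between 110 and 3018 RNAseq reads on other regions of the same transcript. These 12 were Atp5g1, Atp5k, Cox6c, Cox7a2, Cox7b, Ndufa4, Ndufab1, Ndufs3, Ndufs6, Uqcr10, Uqcr11 and Uqcrh. Among all transcripts with a CDS and at least 100 RNAseq reads, 2.91% (429 of 14733) had no CDS read. Uqcr10, a small subunit of complex III, had 3018 RNAseq reads and none on the CDS, which allows a share of up to 0.0994% (3 counts, counting error only). The authors removed degenerate sequences from the transcriptome before alignment, so a CDS at 0 in both assays cannot be read as absence of translation.

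The CDS of these genes was compared with transcripts of all other genes in stretches of 30 bases. In the 15 genes without a CDS read, between 9.32% and 100% of the CDS stretches (median 57.6%) also occurred in another gene, and in all 15 at least 1 such gene was annotated as a pseudogene. In the 38 measured genes the median was 2.32% (0% to 62.4%), and in 20 of them such a gene was also annotated as a pseudogene. A share of 10% or more was found in 14 of the 15 genes and in 12 of the 38 measured ones. The relation was not complete, since the CDS of Uqcrq had no such stretch and no RNAseq read, and the part of shared sequence in the missing counts was not tested. Below, 4 CDSs are shown without stop codon, 5′ to 3′ (GENCODE vM21 transcripts, GRCm38), with capitals for bases inside a stretch found in another gene. Cox7c, Ndufa4 and Uqcr10 had no CDS read, and Atp5e was measured.

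Cox7c (complex IV, chr13:86044816-86046904, minus strand): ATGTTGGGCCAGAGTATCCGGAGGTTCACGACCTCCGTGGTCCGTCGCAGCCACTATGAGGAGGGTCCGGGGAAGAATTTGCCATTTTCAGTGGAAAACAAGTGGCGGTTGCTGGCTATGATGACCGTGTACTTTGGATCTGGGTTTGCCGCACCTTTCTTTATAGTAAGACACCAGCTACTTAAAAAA
Ndufa4 (chr6:11900373-11907450, minus strand): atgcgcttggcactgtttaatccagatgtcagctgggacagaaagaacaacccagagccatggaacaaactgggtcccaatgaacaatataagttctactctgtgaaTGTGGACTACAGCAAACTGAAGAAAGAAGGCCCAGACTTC
Uqcr10 (complex III, chr11:4701973-4704342, minus strand): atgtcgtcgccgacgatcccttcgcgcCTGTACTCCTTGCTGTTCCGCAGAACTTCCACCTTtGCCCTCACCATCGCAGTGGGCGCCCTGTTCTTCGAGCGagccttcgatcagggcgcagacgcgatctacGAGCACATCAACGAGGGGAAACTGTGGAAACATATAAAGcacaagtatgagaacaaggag
Atp5e (complex V, chr2:174461072-174464105, minus strand): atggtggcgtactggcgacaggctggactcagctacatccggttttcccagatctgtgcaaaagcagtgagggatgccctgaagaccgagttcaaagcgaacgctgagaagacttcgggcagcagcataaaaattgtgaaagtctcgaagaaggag

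All 189 bases of Cox7c and none of the 156 bases of Atp5e were in capitals, and Ndufa4 and Uqcr10 had 40 of 147 and 112 of 192. Atp5e had 3113 RNAseq reads and 2325 footprints on its CDS over the 5 libraries of each assay.

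**Figure D1:**
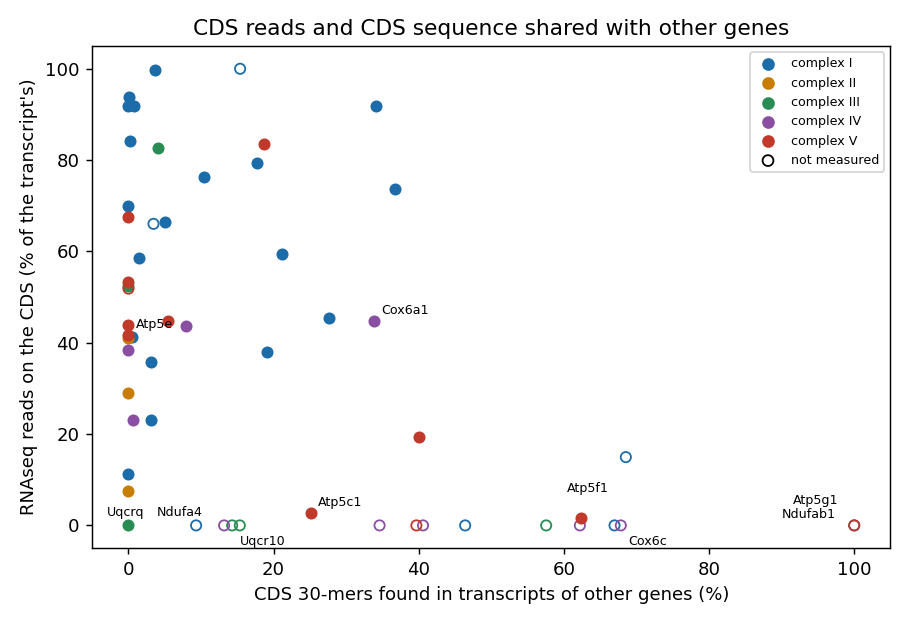
Share of a subunit's RNAseq reads that fell on its CDS (y axis, percent) against the share of its CDS stretches of 30 bases found in other genes (x axis, percent), for subunits with at least 100 RNAseq reads; points are genes, coloured by complex, open where the gene was not measured. The 12 genes without a CDS read in either assay lie on the lower edge, from 9.32% for Ndufa4 to 100% for Atp5g1 and Ndufab1. Cox5a (40.6%), Cox7a2l (62.2%) and the measured Uqcrq (0%) also lie there, since they had CDS footprints but no CDS RNAseq read.

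Upstream of the genes, RefSeq promoters (GRCm38.p6, 250 bases before to 50 after the start) were found for 47 of the 60 genes; those not matched included Atp5a1, Atp5f1, Atp5mpl, Atp5s, Cox6a2, Cox6c, Ndufa2, Ndufa4l2, Ndufb9, Sdhc, Uqcrc2 and Uqcrq. Exact matches on either strand were counted for GCGCATGC (NRF1), CCGGAAG (ETS factors such as GABP) and AAGATGGCG (YY1). The NRF1 letters were in 5 of 51 promoters of subunits (9.80%) and in 2.71% of all 32851 promoters. The ETS letters were in 13 of 51 (25.5%) and 8.86%, and the YY1 letters in 7 of 51 (13.7%) and 1.40%. In 6 of the 7 genes with the YY1 letters, these began 23 to 36 bases into the transcript. The 7 matches are shown with up to 10 bases on each side, the matched letters in capitals.

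Atp5j: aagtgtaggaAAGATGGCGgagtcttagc
Atp5j2: ccaggacttcAAGATGGCGtcactcggtg
Ndufa9: attgtgggagAAGATGGCGgccgccgtcc
Ndufc1: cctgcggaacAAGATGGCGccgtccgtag
Ndufs4: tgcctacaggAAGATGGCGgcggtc
Ndufs6: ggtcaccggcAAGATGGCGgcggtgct
Ndufs7: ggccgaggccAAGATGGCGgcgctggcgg

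Cox6a1, whose ribosomal occupancy rose after KCl, held both NRF1 and ETS letters, as did Atp5k, Atp5l and Uqcr11. Of the other subunits whose occupancy rose, Atp5b, Atp5g3, Ndufa1 and Uqcrfs1 held no NRF1, ETS or YY1 letters. Atp5a1 and Ndufa2 had no matched promoter. A link between these letters and the response to KCl was not tested. The 250 bases before the start of Cox6a1 (chr5:115348959-115349208, minus strand) carry 2 overlapping NRF1 matches and 1 ETS match, in capitals.

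Cox6a1: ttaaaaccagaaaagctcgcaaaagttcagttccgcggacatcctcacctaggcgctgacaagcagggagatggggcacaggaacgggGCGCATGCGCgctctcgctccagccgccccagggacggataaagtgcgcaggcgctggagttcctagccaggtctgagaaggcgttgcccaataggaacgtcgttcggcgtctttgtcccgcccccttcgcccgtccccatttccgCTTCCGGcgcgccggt

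The subunits were abundant transcripts with short coding sequences. In untreated cultures the median measured subunit had an RNAseq level of 103 ± 2.98 RPKM (SD of the median, n = 3 cultures) and an RF level of 192 ± 6.29 RPKM, while the medians of all 7262 measured transcripts were 21.2 and 36.4 RPKM. The median CDS was 417 nt in subunits and 1218 nt in all measured transcripts, and 26 of 38 subunits had a CDS under 600 nt. Per length, the highest RNAseq levels belonged to Atp5e (1136 ± 34.9 RPKM), the epsilon subunit of ATP synthase, and Cox6a1 (1045 ± 35.5 RPKM), a subunit of cytochrome c oxidase. The highest RF level was that of Atp5g3 (885 ± 147 RPKM), which encodes the membrane-embedded c subunit of ATP synthase.

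Translation efficiency (TE) was the RF RPKM of the CDS over the RNAseq RPKM of the transcript in the same culture. The median TE of complexes II and III was higher than that of complexes IV and V in each untreated culture. Single subunits did not all follow this order. Uqcrq of complex III had the lowest mean TE of all measured subunits (0.299). Sdhd of complex II (1.42) lay below Cox6b1 of complex IV (1.64) and Atp5j2 of complex V (2.83). The median TE over the 3 subunits of complex II was 2.63, 2.64 and 2.42 in untreated cultures 1, 2 and 3. Over the 3 subunits of complex III it was 2.26, 2.40 and 2.10. These medians are the values of 1 gene each, Sdha and Uqcrc2, so their repeatability over cultures is that of 1 gene. Mean TE of single subunits spanned 1.42 to 7.22 in complex II and 0.299 to 3.62 in complex III. Complex I held an intermediate place with 1.44, 1.25 and 1.22 over 19 subunits. Complex IV had 0.814, 0.880 and 0.744 over 4 subunits, and complex V had 0.760, 0.893 and 0.734 over 9. The order of complexes IV and V differed between cultures, and the mean TE of complex IV (0.812 ± 0.068) and of complex V (0.796 ± 0.085) differed by less than the spread between cultures. The median of all measured transcripts was 1.66 ± 0.0035, that of transcripts with a CDS under 600 nt was 1.49 ± 0.047, and 13 of 38 subunits lay above the median of all. These are descriptions, since members of a complex are not replicates.

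The TE of a complex moved with the way RNAseq was counted. RNAseq reads on the CDS alone cover the same region as the footprints, but the 2 assays did not lack counts alike. Uqcrq had no CDS RNAseq read and 82 CDS footprints, and Atp5f1 had 22 and 468. With CDS RNAseq alone, the medians were 1.25 for complex I, 4.65 for II, 2.81 for III (2 subunits), 1.08 for IV and 1.32 for V. The median of all measured transcripts was 2.08. The medians of complexes II and III stayed highest. That of complex III now left out Uqcrq, its subunit with the lowest TE, which has no CDS RNAseq read. The 2 subunits left had 3.66 (Uqcrfs1) and 1.96 (Uqcrc2). The lead of complex I over complex V was lost.

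Among subunits with at least 20 CDS footprints in every RF library, Sdhc, Uqcrfs1 and Ndufv2 had the highest TE. Sdhc, a membrane anchor of succinate dehydrogenase, had a TE of 8.62, 6.09 and 6.96 in untreated cultures 1, 2 and 3 (mean 7.22 ± 1.28), above 98.1% of measured transcripts. Over CDS RNAseq alone its TE was 3.93 ± 0.767, and its annotated 3′UTR is 2636 nt of a 3171 nt transcript. Uqcrfs1, the Rieske iron-sulfur protein of complex III, had a TE of 3.62 ± 0.679 and 3.66 over CDS RNAseq. Ndufv2, a subunit of the NADH-binding part of complex I, had 3.34 ± 0.325 and 1.55 over CDS RNAseq. Of these, Uqcrfs1 had nearly equal values by both counts.

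Under the same limit of 20 footprints, which leaves out Uqcrq (0.299 ± 0.184), the lowest TE belonged to Atp5c1, Cox6a1 and Atp5f1, with 0.380 ± 0.041, 0.440 ± 0.052 and 0.552 ± 0.180. For Cox6a1 the value over CDS RNAseq was 0.586, so that it was low by both counts, above 3.79% of measured transcripts. For Atp5c1 and Atp5f1, subunits of the ATP synthase, it was 15.2 and 22.7, above 98.5% and 99.4% of measured transcripts. These transcripts had 33 and 22 CDS RNAseq reads over 5 libraries of 1265 and 1299 reads in all, and 25.1% and 62.4% of their CDS stretches occurred in other genes. The level of TE in both genes thus turned on which RNAseq reads were counted.

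**Figure D2:**
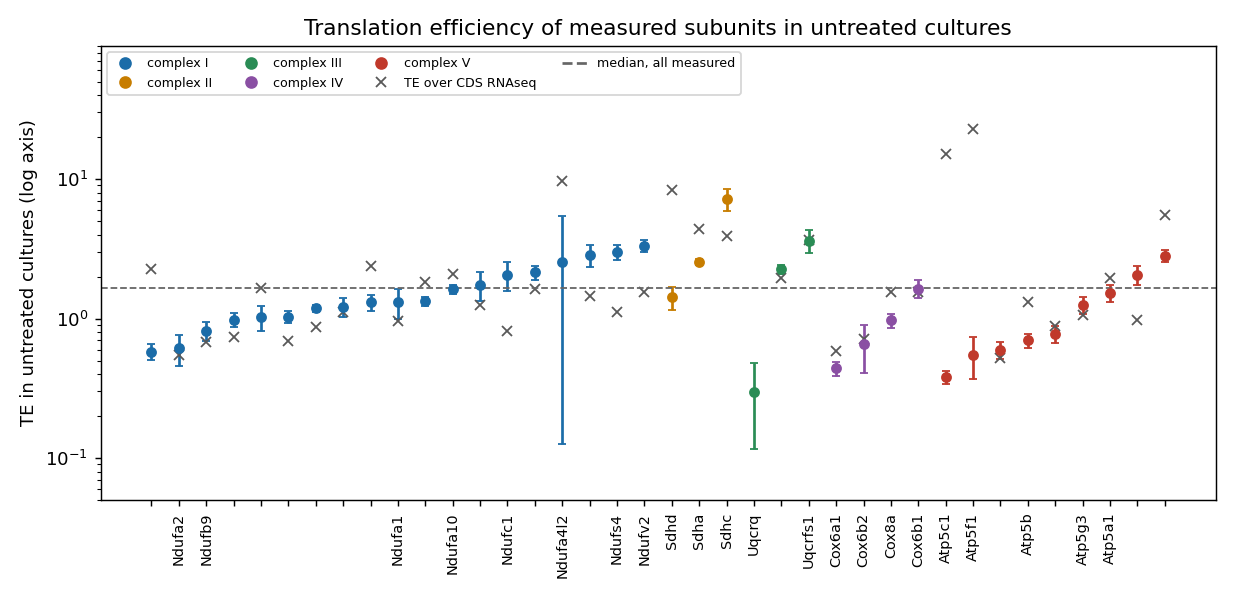
TE of each of the 38 measured subunits in untreated cultures (y axis, log scale), ordered by complex, with the genes of the naming rule labelled; filled points are means over 3 cultures with SD as bars (the lower bar of Ndufa4l2 stops short of 0), crosses are TE over CDS RNAseq, and the dashed line is the median of all measured transcripts. Complex II and III subunits other than Sdhd and Uqcrq lie above the line, all 4 of complex IV lie below it, and the crosses of Atp5c1 and Atp5f1 lie far above their points.

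Several subunits exist as isoforms from separate genes, which differ by tissue. Of complex IV subunit VIb, Cox6b1, the common form, had an RNAseq level of 305 ± 45.6 RPKM in untreated cultures, and Cox6b2, known as the testis form, had 97.3 ± 7.19 RPKM. The RF levels were 492 ± 36.6 and 62.8 ± 20.4 RPKM, so Cox6b1 was higher in both assays beyond the spread between cultures. Cox6b2 shared no CDS stretch of 30 bases with another gene and had 265 CDS footprints over 5 libraries. Cox6a2, the heart and skeletal muscle form of subunit VIa, had 10 RNAseq reads in all and no CDS footprint, whereas Cox6a1 had 10557 RNAseq reads. Of the c subunit genes, Atp5g3 had 709 ± 96.9 RPKM of RNAseq, and Atp5g1 had 110 reads, all on its 3′UTR, with every CDS stretch found in another gene. Cox7a2 and Cox7a2l had 143 ± 19.1 and 292 ± 46.9 RPKM of RNAseq, and no and 2 CDS footprints. Ndufa4, now counted with complex IV in many accounts, had 201 ± 26.4 RPKM of RNAseq, and its paralog Ndufa4l2 had 11.5 ± 5.97 RPKM. The TE of Ndufa4l2 was 1.66, 5.75 and 0.200 in untreated cultures 1, 2 and 3 and rested on as few as 1 footprint per library. Cox8a had 707 ± 25.2 RPKM of RNAseq, and other forms of its family were not analysed here.

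In complex II, Sdha, the flavoprotein that oxidizes succinate, had an RNAseq level of 69.2 ± 2.43 RPKM in untreated cultures and a TE of 2.63, 2.64 and 2.42 in cultures 1, 2 and 3. Sdhd, the other membrane anchor beside Sdhc, had a TE of 1.71, 1.18 and 1.37, but 8.32 over CDS RNAseq. Of its 3117 RNAseq reads, 2817 were on the 3′UTR and 236 on the CDS. Sdhb was not analysed here.

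Footprints on 5′UTRs were few in most subunits. Of footprints on 5′UTR and CDS together, the median subunit had 1.75% on the 5′UTR, beside 4.18% in all measured transcripts. Uqcrq, a small subunit of complex III, stood apart with 982 footprints on the 5′UTR and 82 on the CDS (92.3% on the 5′UTR), and had no RNAseq read on its CDS. Cox6b1 had 1032 and 2652 (28.0%), and Atp5e had 759 and 2325 (24.6%).

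Transcript abundance after 3 h of KCl changed in few subunits and in both directions. RNAseq rose in 3 of 38 subunits (Atp5b, Atp5g3 and Sdhd) and fell in 6 (Ndufa10, Ndufv2, Uqcrq, Ndufs4, Ndufc1 and Ndufb9) at an adjusted p under 0.05 (edgeR quasi-likelihood test, Benjamini-Hochberg over 7262 transcripts). Of all measured transcripts, 17.5% rose and 15.7% fell, beside 7.89% and 15.8% of subunits, so the share that fell was near that of all and the share that rose was lower. The median log2 fold change was -0.12 in subunits and -0.01 in all transcripts. With library totals in place of TMM scaling, calls in all transcripts were 42.5% higher rather than 52.7%, and 1 subunit rose and 10 fell.

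Of the 6 that fell, 5 were in complex I and none of the 19 subunits of that complex rose. These are 26.3% and 0% of complex I, beside 15.7% and 17.5% of all measured transcripts. The median log2 fold change of complex I was -0.23, and 14 of 19 values were below 0, beside 3729 of 7262 in all measured transcripts. Ndufv2 (chr17:66078638-66101559, minus strand, 8 exons) had 96.5, 96.5 and 110 normalized CPM of RNAseq in untreated cultures 1, 2 and 3 and 69.0 and 69.6 in KCl cultures 4 and 5. Both KCl cultures were below all untreated ones, with a log2 fold change of -0.54 ± 0.16 (SE, adjusted p = 0.00552, edgeR). Ndufa10, an accessory subunit of complex I, had 103, 120 and 97.1 CPM in untreated and 77.2 and 68.4 in KCl cultures, again without overlap (-0.55 ± 0.16, adjusted p = 0.0048, edgeR). Ndufs4, Ndufc1 and Ndufb9 fell by 0.39, 0.39 and 0.38 on the log2 scale, with adjusted p of 0.0447, 0.0307 and 0.0374 (edgeR). The exons of Ndufb9 overlap by 201 nt those of Gm49356 on the same strand, and their reads cannot be told apart. Leaving out KCl culture 5 ended all 6 calls of a fall, leaving out KCl culture 4 ended 5 and leaving out untreated culture 2 ended 4, while the signs stayed.

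In complex V, 2 of 9 subunits rose (22.2%) and none fell, with a median log2 fold change of 0.17. Of all measured transcripts 17.5% rose and 15.7% fell, so the share that rose was near that of all. Atp5b (chr10:128083273-128090391, plus strand, 10 exons) encodes the catalytic beta subunit of ATP synthase. Its RNAseq was 479, 501 and 531 CPM in untreated cultures 1, 2 and 3 and 664 and 696 CPM in KCl cultures 4 and 5. The groups did not overlap, and the log2 fold change was 0.43 ± 0.12 (adjusted p = 0.00487, edgeR). Atp5g3 had 427, 536 and 556 CPM in untreated and 626 and 678 CPM in KCl cultures (0.37 ± 0.13, adjusted p = 0.0238, edgeR). Sdhd, of complex II, had 145, 181 and 185 CPM and 227 and 213 CPM (0.37 ± 0.14, adjusted p = 0.0322, edgeR). The calls of Atp5g3 and Sdhd were lost without untreated culture 1, that of Sdhd without KCl culture 4, and all 3 without KCl culture 5.

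Ribosomal occupancy of the CDS changed in 9 subunits. RF rose in 7 of 38 subunits (Atp5b, Ndufa1, Cox6a1, Ndufa2, Atp5a1, Uqcrfs1 and Atp5g3) and fell in 2 (Ndufb9 and Ndufv2). Of all measured transcripts 20.9% rose and 20% fell, beside 18.4% and 5.26% of subunits. The median log2 fold change was 0.11 in subunits and -0.01 in all. Of the subunits, 29 of 38 values were above 0, beside 49.1% of all measured transcripts. With library totals, the median of all transcripts shifted to -0.11 and that of subunits to 0.01, 19 of 38 values were above 0, calls in all transcripts were 37.5% higher rather than 51.1%, and 4 subunits rose and 4 fell. The distance between subunits and all transcripts was 0.12 under both scalings. A change of scaling moves all transcripts by nearly the same amount, so this distance could hardly change and is no test of it.

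Atp5b had the largest rise among the called subunits in both assays. Its CDS footprints were 301, 251 and 323 normalized CPM in untreated cultures 1, 2 and 3 and 481 and 512 CPM in KCl cultures 4 and 5, with no overlap (0.79 ± 0.09, adjusted p = 1.43e-07, edgeR). Cox6a1 had 168, 152 and 142 CPM in untreated and 204 and 227 CPM in KCl cultures, also without overlap (0.48 ± 0.10, adjusted p = 0.000364, edgeR). Atp5a1, the alpha subunit that forms the ATP synthase head together with the beta subunit, had 1023, 936 and 1069 CPM and 1216 and 1273 CPM (0.31 ± 0.08, adjusted p = 0.00235, edgeR). In these 3 genes the KCl cultures lay above every untreated culture.

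Ndufa1, a small accessory subunit of complex I encoded on the X chromosome, had 57.7, 54.9 and 48.2 CPM of footprints in untreated and 76.6 and 77.9 CPM in KCl cultures (0.50 ± 0.13, adjusted p = 0.00381, edgeR). Its RNAseq overlapped between the groups (-0.03 ± 0.16). Uqcrfs1 had 195, 169 and 187 CPM and 227 and 218 CPM (0.27 ± 0.10, adjusted p = 0.0237, edgeR). Atp5g3 and Ndufa2 rose by 0.26 and 0.35 on the log2 scale at adjusted p of 0.0471 and 0.0490 (edgeR), close to the threshold, and the groups of Atp5g3 overlapped. Sdhd lay just beyond it (0.29 ± 0.12, adjusted p = 0.0502, edgeR). Of the 7 calls, those of Atp5g3, Ndufa2 and Uqcrfs1 were lost without KCl culture 4, and these together with Atp5a1 and Ndufa1 without KCl culture 5. Without untreated culture 1 the call of Atp5g3 was lost, without untreated culture 2 those of Ndufa2 and Uqcrfs1, and without untreated culture 3 that of Ndufa2.

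The 2 subunits whose occupancy fell also fell in abundance. Ndufv2 had 147, 151 and 142 CPM of footprints in untreated and 104 and 104 CPM in KCl cultures (-0.50 ± 0.11, adjusted p = 0.000511, edgeR). Ndufb9, an accessory subunit of complex I, had 109, 101 and 113 CPM and 64.4 and 78.6 CPM (-0.56 ± 0.13, adjusted p = 0.000821, edgeR). The KCl cultures of both genes lay below all untreated cultures in both assays. The RF calls of Atp5b, Cox6a1, Ndufb9 and Ndufv2 held in each alternative fit of RF that was run.

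**Figure D3:**
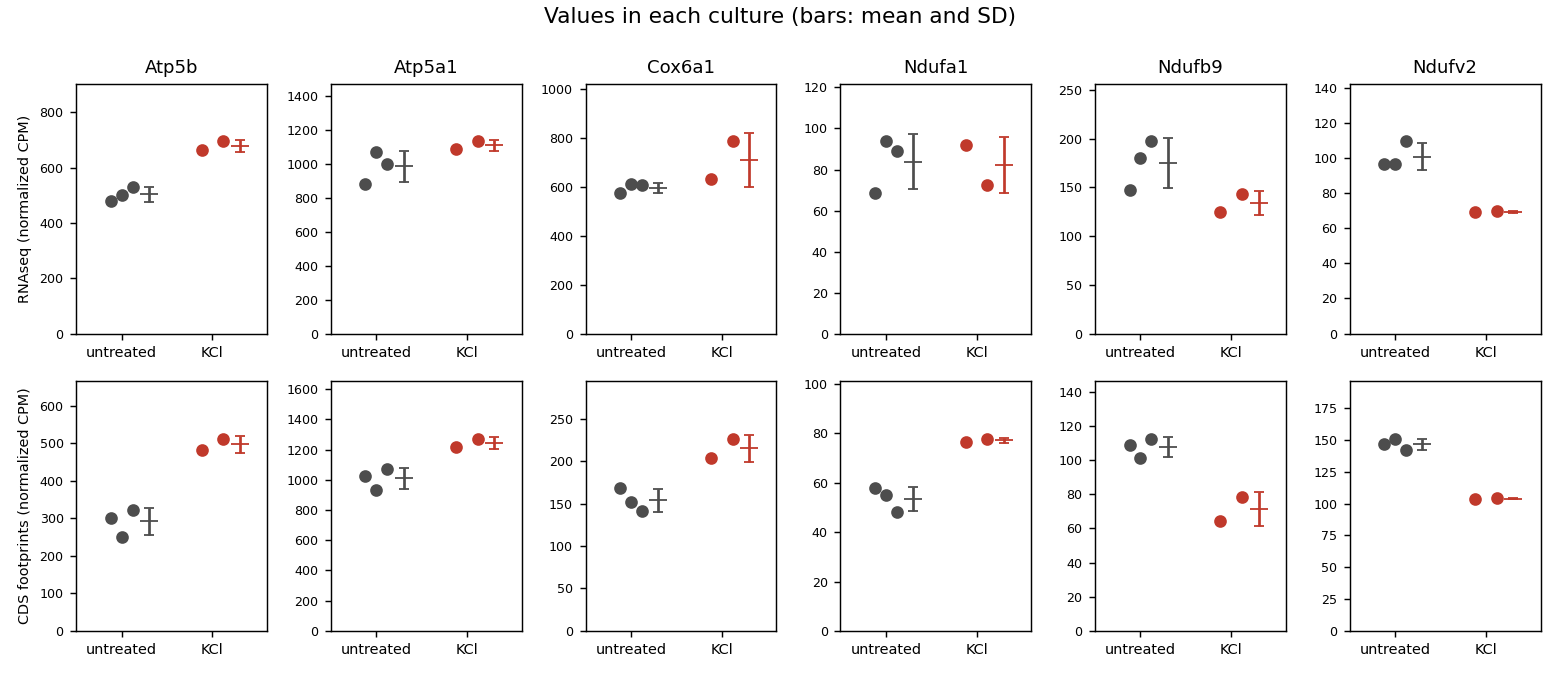
Normalized CPM of RNAseq (upper row) and CDS footprints (lower row) of 6 subunits in each culture, untreated in grey and KCl in red; bars are mean and SD of 3 untreated and 2 KCl cultures. Footprints of Atp5b, Atp5a1, Cox6a1 and Ndufa1 in KCl cultures lie above, and those of Ndufb9 and Ndufv2 below, every untreated culture, while RNAseq of Ndufa1 overlaps.

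**Figure D4:**
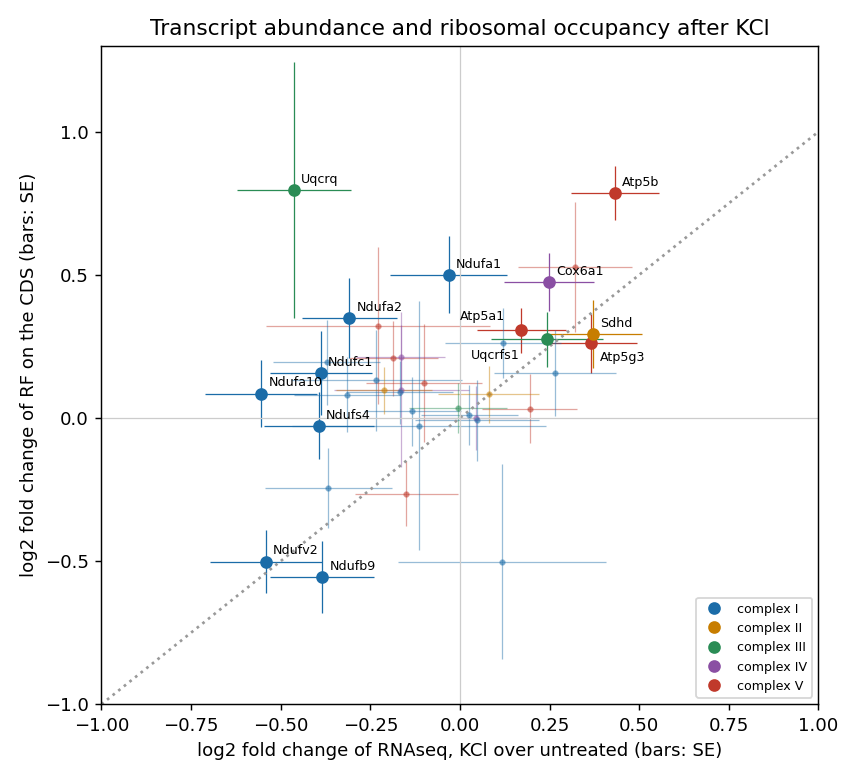
Log2 fold change of RF on the CDS (y axis) against that of RNAseq (x axis) for the 38 measured subunits, with SE as bars; large labelled points passed the test in RNAseq or RF, colours are complexes, and the dotted line marks equal change. Atp5b lies at the upper right, Ndufv2 and Ndufb9 at the lower left, and Ndufa10, Ndufs4 and Ndufc1 lie left of 0 with RF changes between -0.03 and 0.16.

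Changes in TE follow from the gap between both assays and were tested as the difference of the KCl effect between RF and RNAseq. TE rose in 2 of 38 subunits (Ndufa2 and Uqcrq) and fell in none, beside 1.58% of all measured transcripts that rose and 4.24% that fell. At an unadjusted p under 0.05 (edgeR), 9 subunits rose and none fell, beside 540 of 7262 measured transcripts that rose and 685 that fell. DESeq2 called no subunit in either direction. The median log2 change of TE was 0.16 in subunits and 0.02 in all transcripts. Of the subunits, 28 of 38 values were above 0, beside 52.2% of all measured transcripts.

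Ndufa2, an accessory subunit of complex I, had a TE of 0.773, 0.470 and 0.592 in untreated cultures 1, 2 and 3 and 0.941 and 0.949 in KCl cultures 4 and 5. The groups did not overlap (0.65 ± 0.19, adjusted p = 0.0192, edgeR). Its exons overlap those of Tmco6 on the other strand by 66 nt, and RNAseq was not stranded. Uqcrq had a TE of 0.299, 0.115 and 0.483 and 0.636 and 0.557 (1.29 ± 0.43, adjusted p = 0.0431, edgeR). Its CDS footprints numbered 34, 12 and 9 in untreated and 10 and 17 in KCl cultures, so the value rests on few reads. Both calls were lost without untreated culture 2, without either KCl culture, and in DESeq2. That of Ndufa2 was also lost without untreated culture 3, and that of Uqcrq without the replicate block (adjusted p = 0.0675). Ndufa10, with 1.67, 1.48 and 1.72 in untreated and 2.23 and 2.81 in KCl cultures, lay next to the threshold (0.65 ± 0.22, adjusted p = 0.0520, edgeR). Its footprints were 90.8, 93.5 and 88.2 CPM in untreated and 90.8 and 101 CPM in KCl cultures while its RNAseq fell.

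By complex, the median log2 change of TE was 0.16 in complex I, -0.01 in II, 0.04 in III, 0.27 in IV and 0.17 in V. In complex I, 15 of 19 values were above 0, where 14 of 19 RNAseq values were below 0 and 12 of 19 RF values were above 0. These counts share the same libraries and are descriptions. With RNAseq on the CDS alone, no subunit passed the test of TE.

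Most genes that were not measured could still be followed in RNAseq. Of the 22, 18 had at least 100 RNAseq reads, and in a fit without the filter 1 rose and 1 fell, where 19.0% of 21950 fitted transcripts were called in either direction. Ndufa4 rose by 0.41 ± 0.15 (adjusted p = 0.0377, edgeR), but its groups overlapped. It had 84.7, 89.8 and 108 CPM in untreated cultures 1, 2 and 3 and 133 and 107 CPM in KCl cultures 4 and 5. Ndufa5, a complex I subunit, fell by 1.22 on the log2 scale (SE 0.44, adjusted p = 0.0335, edgeR) on 106 reads in all. The median of the 18 was -0.06.

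Of the regulators of respiratory genes, 4 rose by more in RNAseq than any measured subunit. Of 14 listed, 6 were measured, and RNAseq rose in 4 (Ppargc1a, Pprc1, Nrf1 and Yy1) and fell in 1 (Hif1a), with a median log2 fold change of 0.97. Of all measured transcripts, 17.5% rose and 15.7% fell in RNAseq. Ppargc1a, the coactivator PGC-1 alpha, had 28.7, 34.3 and 27.1 CPM of RNAseq in untreated and 117 and 112 CPM in KCl cultures (1.93 ± 0.17, adjusted p = 1.83e-12, edgeR). Its RF rose by 2.62 ± 0.15. Nrf1 had 37.2, 34.6 and 50.1 CPM in untreated and 101 and 97.7 CPM in KCl cultures (1.29 ± 0.17, adjusted p = 6.96e-08, edgeR), and Yy1 rose by 1.27 ± 0.19 (adjusted p = 6.06e-07, edgeR). Both KCl cultures were above all untreated ones in these 3 genes. No measured subunit had a log2 fold change above 0.43 in RNAseq.

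Enzymes of the TCA cycle and assembly factors, which build the complexes but are not part of them, fell more often than they rose in RNAseq. Of 8 measured TCA cycle enzymes, RNAseq fell in 4 (Ogdh, Dld, Sucla2 and Suclg1) and rose in none (median -0.30), and RF rose in 2 and fell in none. TE of Sucla2, a subunit of succinyl-CoA synthetase, rose by 0.98 ± 0.24 (adjusted p = 0.00243, edgeR), with RNAseq of 42.4, 42.2 and 56.8 CPM in untreated and 39.1 and 17.3 CPM in KCl cultures. Of 17 measured assembly factors, RNAseq fell in 6 and rose in 1, Ndufaf2 (median -0.53), and RF fell in 3 and rose in 2. Among all measured transcripts, 15.7% fell and 17.5% rose in RNAseq, and 20% fell and 20.9% rose in RF. In TE, 1.58% of them rose. Of 3 measured chain components outside the symbol rule, none changed in RNAseq, RF or TE (medians -0.17, 0.04 and 0.23).

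**Figure D5:**
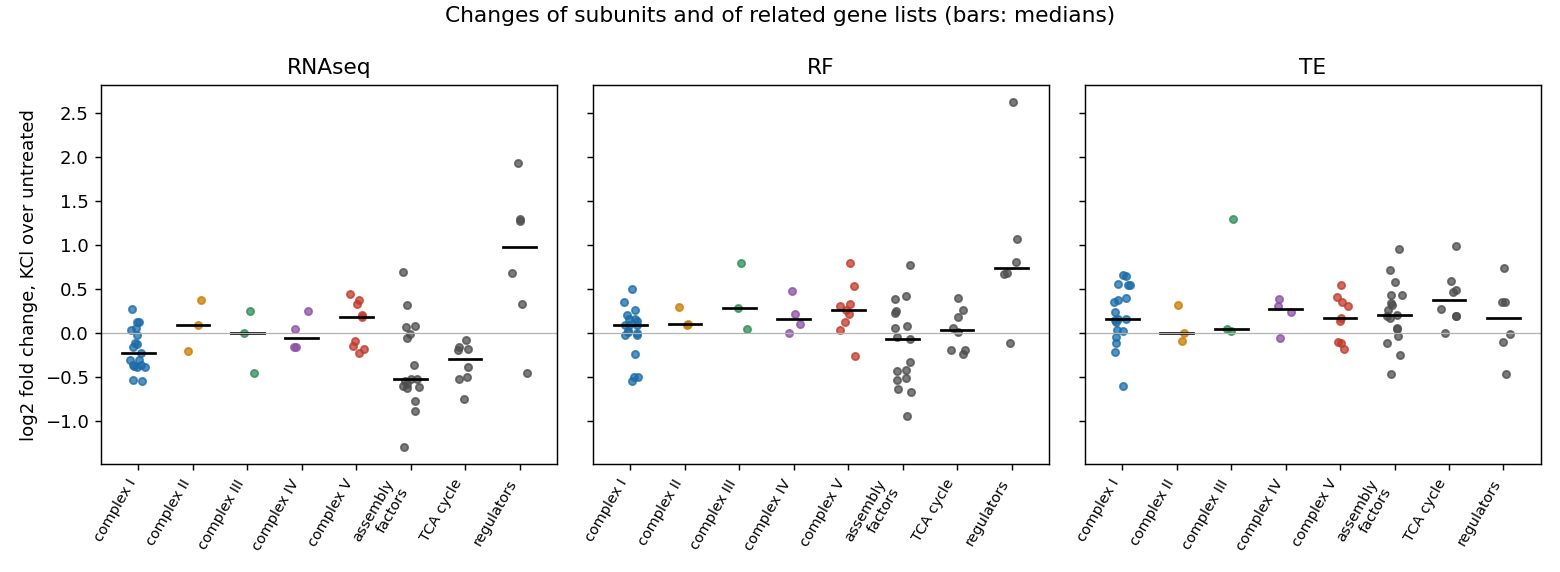
Log2 fold change (KCl over untreated) of RNAseq, RF and TE for measured subunits by complex and for assembly factors, TCA cycle enzymes and regulators; each point is a gene and bars are medians. In RNAseq the regulators reach 1.93 (Ppargc1a) while all subunits lie between -0.55 and 0.43.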

How the data were processed

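RNAseq and RF reads had been trimmed with Trimmomatic 0.32, cleared of rRNA with STAR and aligned with Bowtie2 2.2.2 to an mm10 transcriptome without degenerate sequences, reads mapping to several transcripts being kept; the authors deposited raw counts per transcript region from bedtools 2.20.1. The letters marking CDS, 5′UTR and 3′UTR were inferred from read shares, and 1 region remains unnamed. Transcripts were matched to GENCODE vM21 (22172 of 22534). Differences were tested with edgeR 4.0.16 in R 4.3.3 (quasi-likelihood test, robust, TMM within assay); for TE, the assay-by-treatment term was tested in a fit of all 10 libraries that held culture number as a block, because both libraries of a culture came from 1 lysate. Deviations of same-culture libraries from group means correlated between -0.074 and 0.064. SE is the log2 fold change over the square root of F, an approximation. An exact permutation of 3 against 2 cultures cannot go below p = 0.1. On simulated counts (7262 transcripts, 200 changed by 1.5 on the log2 scale), edgeR found 100% of the changes in RNAseq, 100% in RF and 93.5% in TE. Of its calls there, 3.85%, 5.21% and 2.60% were false. All called subunit changes were smaller than 1.5, so the simulation cannot say how often changes of their size are found. Normalized CPM and RPKM use TMM-scaled totals; the filter uses plain totals. Named genes were every subunit called, the 3 highest and 3 lowest TE with at least 20 footprints in every RF library, isoform families and Sdh genes; regulators, TCA enzymes and other genes were named from the lists after their values were seen. The members and lists were chosen with earlier results of these data known. Alternatives were DESeq2 1.42.0, library totals, no filter, leaving out each culture, the transcript with the highest RF count, no block, and CDS RNAseq. Nothing states separate litters, so p-values measure the spread between these cultures.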

Additional observations from a re-analysis of the deposited data

How the results depend on the processing

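No called value of a subunit changed sign under any alternative; of the alternative values of called subunits, 104 kept their call and 67 lost it. Subunits called higher and lower in RNAseq (3 and 6) numbered 1 and 10 with library totals and 1 and 2 with CDS RNAseq, and 3 were lower with no filter beyond 1 read; leaving out a culture gave 1 to 3 and 0 to 7. In RF (7 and 2), 4 were higher in DESeq2, 4 and 4 were called with library totals, and 11 were higher without a filter, which tests more genes; leaving out a culture gave 3 to 7 and 2 to 3. In TE (2 and 0), 0 were higher in DESeq2, 1 with library totals, 1 without a filter and 0 with CDS RNAseq; leaving out a culture gave 0 to 4. With no replicate block, TE calls were 2 and 0, and same-culture libraries did not deviate together; this changed no other count by over 1.5 times. Leaving out a KCl culture leaves 1, which is assumed to vary like the others. Over all transcripts DESeq2 called 34 TE rises and 140 falls, edgeR 115 and 308. The fit without a filter also placed the called RNAseq and RF values higher than the main fit did. For Atp5b the log2 fold change was 0.50 rather than 0.43 in RNAseq and 0.86 rather than 0.79 in RF. Its counts of rises and falls therefore differ by more than the number of genes tested. The causes were not tested.

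Baseline TE moved with CDS RNAseq to 4.65 (II), 2.81 (III), 1.08 (IV) and 1.32 (V), without a filter to 1.47 (I), 0.631 (IV) and 1.02 (V), and, chosen after seeing the data, without subunits with under 100 CDS RNAseq reads to 2.94 (III) and 1.02 (V). The comparison median moved to 1.49 for transcripts with a CDS under 600 nt. With Ndufa4l2 in complex IV, complexes I and IV moved by less than the spread between cultures. Values under 100 footprints per library, mostly in untreated culture 3 and KCl culture 4, are limited by depth.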
